A study of Mus musculus with 24 samples.

Results

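Distal cohesin-CTCF sites that still carried CTCF after induced loss of the protein were described here in mouse pro-B cell lines, across their strength, sequence, position, nearby genes and cohesin occupancy. A site was a union of overlapping chromatin immunoprecipitation (ChIP-seq) peaks present in all 3 libraries of a group. The parental line gave 33715 CTCF sites and 25027 Rad21 sites, and 20196 of the Rad21 sites overlapped a CTCF site. Of these, 14933 lay more than 1 kb from every annotated transcript start and outside chromosome 12, and they are called distal sites below. At 1953 distal sites (13.1% of distal sites, 7.80% of all parental Rad21 sites) all 3 CTCF lists of IAA-treated CTCF-degron cells had an overlapping peak, and these are the retained sites. They were thus chosen by measured peaks of the parental CTCF and Rad21 lists and of the CTCF lists after depletion. A further 2487 distal sites had a CTCF peak in 1 or 2 of those lists (partial sites) and 10493 had none (lost sites). Over all parental CTCF sites, promoters and chromosome 12 included, 12.9% had a CTCF peak in all 3 lists.

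All lines were pro-B cells transformed with v-Abl, deficient in RAG2 and carrying Emu-Bcl2, and all received STI-571, an inhibitor of the Abl kinase, at 3 µM over 4 days. The parental line carried no degron and received no IAA, and it was profiled with 3 CTCF and 3 Rad21 libraries. The CTCF-degron line received 500 µM IAA for 6 h and then together with STI-571, and was also profiled with 3 CTCF and 3 Rad21 libraries. Genotype and IAA therefore changed together between these groups, and their parts cannot be told apart. The Rad21-degron line was profiled with 2 Rad21 libraries without IAA and 2 with the same IAA treatment. A degron is a tag through which the plant hormone auxin (IAA) marks the fused protein for degradation. The labels do not say whether a line is 1 clone, nor whether replicates came from separate cultures, so the spread between replicates may be technical. In bulk cells, loss of a protein from a fraction of the cells and a lower amount in every cell cannot be told apart.

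CTCF is a zinc-finger protein that binds a long, oriented DNA motif. Cohesin, the ring complex that contains Rad21, extrudes chromatin loops and accumulates where it meets bound CTCF, so that many cohesin peaks coincide with CTCF peaks. In developing B cells such loops bring distant antigen-receptor segments to the recombination centre where RAG cuts.

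Sequences of 4 retained sites are shown first because they had the highest CTCF ranks after depletion among retained sites that carried the CTCF core motif and had no Rad21 peak in either IAA-treated Rad21-degron list. They were chosen after their values were seen. Each line gives 60 bp of the mouse build mm9, 5′ to 3′ on the strand that carries the motif, with the 20 bp motif in capitals.
chr8:129021134-129022636, plus strand: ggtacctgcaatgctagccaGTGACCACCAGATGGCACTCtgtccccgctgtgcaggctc
chr17:29651040-29651981, minus strand: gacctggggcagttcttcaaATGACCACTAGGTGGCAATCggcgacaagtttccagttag
chr4:87013706-87015288, plus strand: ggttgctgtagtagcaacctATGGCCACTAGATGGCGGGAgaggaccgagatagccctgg
chr2:151937494-151938221, plus strand: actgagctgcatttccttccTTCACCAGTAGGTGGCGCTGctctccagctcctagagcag

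A set of 3 lost sites is shown for contrast, namely those with the highest parental CTCF ranks among lost sites with the motif, likewise chosen after their values were seen. Both sets match the same motif.
chr8:71642666-71643321, plus strand: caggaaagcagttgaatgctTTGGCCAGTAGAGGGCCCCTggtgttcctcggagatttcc
chr7:108561172-108561943, plus strand: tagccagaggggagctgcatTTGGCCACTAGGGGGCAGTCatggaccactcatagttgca
chr17:63763015-63764149, plus strand: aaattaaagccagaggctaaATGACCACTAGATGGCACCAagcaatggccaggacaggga

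The last set shows retained sites with no motif. They are 3 of the sites with the highest parental CTCF ranks, and their fold enrichment is given further on. Their central 31 bp has no second exact copy in the reference, and near copies were not counted. All 3 also had a Rad21 peak in both IAA-treated Rad21-degron lists, as had 182 of the 1953 retained sites. They do not stand for the 1656 retained sites with no Rad21 peak in those lists, of which 38.9% carried a motif. The lines give the central 60 bp of each site on the plus strand.
chr6:103599034-103599308, plus strand: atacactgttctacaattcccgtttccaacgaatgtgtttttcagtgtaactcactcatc
chr9:35112789-35113196, plus strand: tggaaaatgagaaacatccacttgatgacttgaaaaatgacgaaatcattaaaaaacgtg
chr2:98503804-98504258, plus strand: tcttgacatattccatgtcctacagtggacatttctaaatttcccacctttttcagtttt

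The question was what the sites that keep CTCF look like and what happens to cohesin there. At the retained motif site chr8:129021134-129022636, which is intergenic, the authors' fold enrichment of CTCF was 12.2, 12.4 and 20.04 in the parental lists and 11.4, 20.8 and 10.9 after CTCF depletion. Its Rad21 fold enrichment was 30.9, 28.3 and 16.6 in the parental lists and 24.3, 25.4 and 11.5 after CTCF depletion. In the Rad21-degron line it was 12.6 and 9.76 without IAA, and no peak was called in either library with IAA. Thus Rad21 was called at this site in every list except the 2 in which Rad21 itself was depleted.

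The lost site chr17:63763015-63764149, in an intron of Fbxl17 (an F-box subunit of ubiquitin ligases), started with comparable parental values. Its CTCF fold enrichment was 17.7, 18.1 and 20.4 in the parental lists, and no CTCF list had a peak after depletion. Its Rad21 fold enrichment was 28.2, 27.1 and 13.3 in the parental lists, with no Rad21 peak in any of the 3 lists after CTCF depletion. The untreated Rad21-degron lists had peaks of 10.3 and 10.1 there. Both sites were called with every parental library, and only the first was still called for CTCF and Rad21 in the CTCF-degron lists.

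Retained sites were strong sites in the lists that chose them. These values are a description with no test, because the parental lists and the CTCF lists after depletion formed the rule. Their median percentile rank of CTCF fold enrichment was 91.4, 90.9 and 90.9% of the parental lists, against 85.2, 84.2 and 84.4% at partial sites and 76.5, 73.9 and 73.5% at lost sites. For parental Rad21 the median ranks were 93.6, 90.4 and 85.4% at retained sites and 84.7, 75.9 and 60.6% at lost sites. The interquartile ranges of the classes overlapped in every parental list (plot of ranks by class). After CTCF depletion the retained sites had median CTCF ranks of 86.1, 90.1 and 72.0% of the 3 lists, and 55.6, 62.9 and 51.9% of the 1000 strongest peaks of those lists overlapped a retained site.

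**Figure D1:**
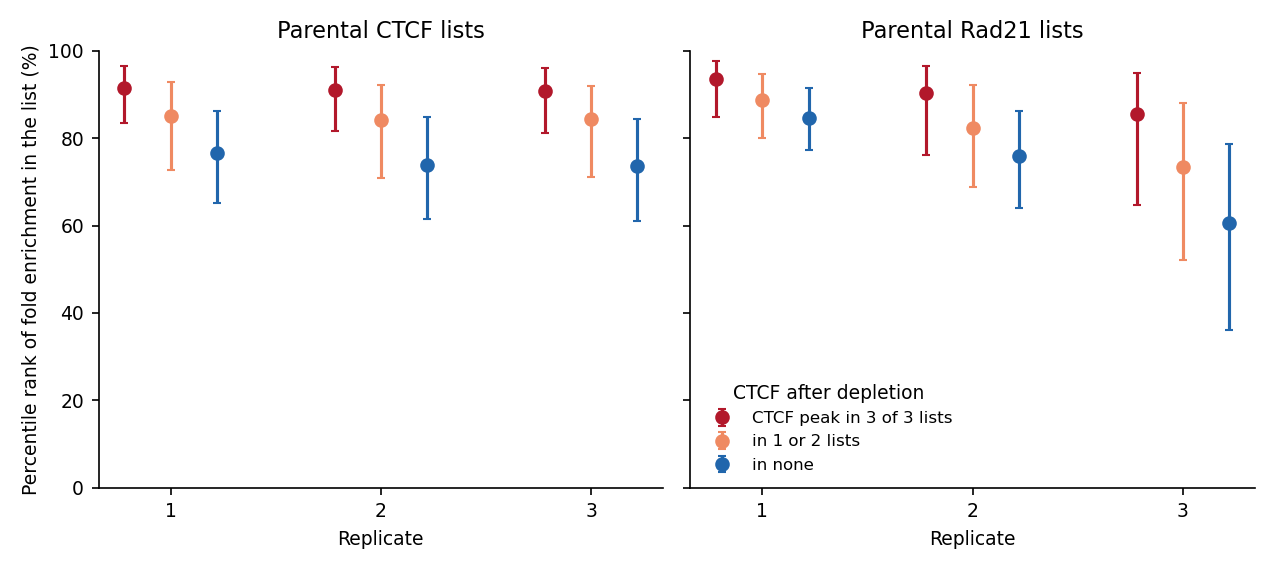
Percentile rank of the authors' fold enrichment within each parental list (y axis, %) at distal sites, by replicate (x axis) and by the number of CTCF lists with a peak after CTCF depletion. Points are medians and bars the interquartile range over sites; the 3 classes are ordered in every list, with the retained sites at 90.9 to 91.4% for CTCF, and their bars overlap.

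Strong parental sites were found among both retained and lost sites. When distal sites were split into 10 equal groups by mean parental CTCF rank, 41.3% of the strongest group were retained and 35.3% of it were lost. The share retained was 27.5% in the 9th group, 13.0% in the 7th and 2.81% in the 4th. The weakest group, with 10.98% retained, lay above the groups from the 2nd to the 6th, which ranged from 2.81 to 6.23%. Among the 1000 strongest parental CTCF peaks of each list, 28.2, 28.2 and 27.9% overlapped a retained site and 20.4, 22.2 and 22.0% a lost site.

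The CTCF lists after depletion differed in length, and membership was sensitive to the shortest. Those lists had 15510, 15754 and 8215 peaks and covered 20.2, 28.1 and 14.3% of distal sites. Of the 993 distal sites with a CTCF peak in 2 lists, 828 lacked it in replicate 3. Without that replicate the same rule gave 2781 retained sites, which is 18.6% of distal sites. The weakest retained site with a single-copy centre lay at chr5:138668577-138669703, in an intron of BC055004, with CTCF fold enrichment of 4.06, 4.00 and 4.06 after depletion. The next weakest lay at chr9:32419515-32421505 (nearest start Ets1, an ETS factor), with 4.18, 3.96 and 4.21. Just outside the rule, the strongest site with 2 lists lay at chr10:118029498-118030500 (nearest start Ifng, encoding interferon gamma), with 6.67 and 10.6 in replicates 1 and 2 and no peak in replicate 3. The second, at chr13:51044644-51045851, had 6.78 and 8.67 and likewise none in replicate 3. Values just inside and just outside the rule therefore overlapped. At the distance limit, the nearest retained sites inside lay 1017 bp from Gm9566 and 1024 bp from Gm4070, and the nearest outside lay 984 bp from Trp53i11 and 950 bp from Gvin1.

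The fate of Rad21 at these sites was read from lists that did not enter the rule. After CTCF depletion, 99.9, 99.3 and 94.3% of retained sites had a Rad21 peak in the 3 libraries (mean 97.8% ± 3.09, SD, n = 3). At lost sites the shares were 17.3, 13.9 and 3.18% (mean 11.5% ± 7.38, SD, n = 3). The classes were fully apart, and the difference within libraries was 86.3 percentage points ± 4.34 (SD, n = 3), in the same direction in 3 of 3 libraries. With an exact sign-flip permutation test (two-sided, as are all tests here) p was 0.25, the smallest value that 3 libraries allow, and 0.4375 after Benjamini-Hochberg adjustment over the 7 tests made. When at least 50% of a site had to be covered by Rad21 peaks, the difference was 58.1 percentage points.

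Rad21 was called in all 3 lists at 1837 retained sites, in 2 lists at 105, in 1 at 10 and in none at 1 site. That is 94.1% with all 3, against 23.7% of all distal sites and 35.5% of all parental Rad21 sites. Of the 116 retained sites that missed at least 1 list, 101 missed replicate 3 alone, which is the shortest of these lists with 15690 mouse peaks against 35224 and 25949. Among lost sites, 276 had Rad21 in all 3 lists and 8364 (79.7%) in none. No Rad21 peak in any of the 3 lists was found at 56.4% of distal sites and 41.5% of all parental Rad21 sites.

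Partial sites were graded by the number of CTCF lists. Rad21 was called at 94.7, 88.7 and 44.0% of the 1494 sites with 1 CTCF list and at 99.7, 98.2 and 79.1% of the 993 sites with 2 lists. Retained sites exceeded partial sites by 15.4 percentage points ± 18.1 (SD, n = 3), higher in 3 of 3 libraries, with an exact sign-flip p of 0.25 (0.4375 adjusted). Without Rad21 replicate 3 the difference was 5.00 points. It was 6.86 points without replicate 2 of the CTCF lists after depletion, 35.1 points with at least 50% of a site covered, 31.8 points with a q-value of 0.001 or less, and 24.2 points with lists shortened to equal length.

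**Figure D2:**
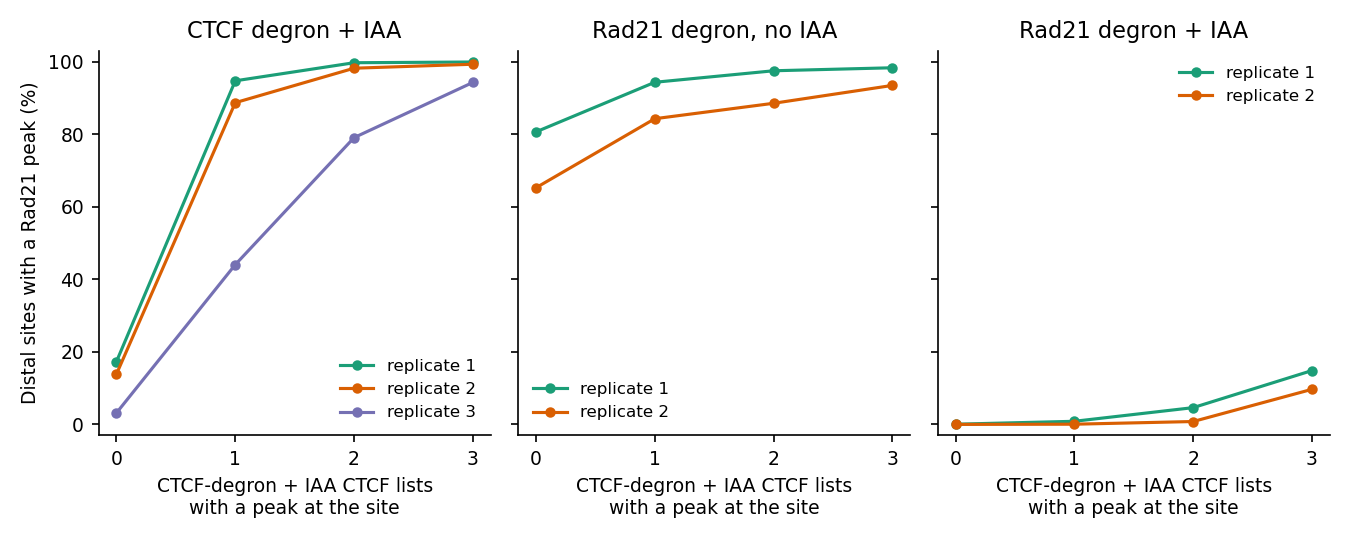
Percent of distal sites with a Rad21 peak (y axis) by the number of CTCF lists with a peak at the site after CTCF depletion (x axis, 0 to 3), for the CTCF-degron line with IAA and the Rad21-degron line without and with IAA. Each line is 1 library; in the CTCF-degron line the shares run from 3.18 to 17.3% at 0 lists to 94.3 to 99.9% at 3 lists, and with Rad21 depleted they stay at or under 14.8%.

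Rad21 peaks that stayed at retained sites were also among the strongest of their lists. Their median rank of fold enrichment after CTCF depletion was 96.0, 94.5 and 88.7%, against 40.1, 40.4 and 35.0% for the Rad21 peaks at lost sites. These medians did not overlap between the classes, and the difference was 54.6 rank points ± 1.17 (SD, n = 3; exact sign-flip p = 0.25, 0.4375 adjusted). It was 21.4 rank points when Rad21 peaks had to have a q-value of 0.001 or less. Among the 1000 strongest Rad21 peaks of each list after CTCF depletion, 73.1, 73.1 and 65.0% overlapped a retained site and 0% a lost site. In the parental Rad21 lists, 35.1, 34.2 and 35.5% of the 1000 strongest peaks overlapped a retained site.

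The difference between retained and lost sites was seen at every level of parental CTCF strength. Across the 10 groups by parental CTCF rank, the mean share of retained sites with Rad21 after CTCF depletion ran from 92.6% ± 11.5 (SD, n = 3) in the 2nd to 99.2% ± 1.17 in the strongest. At lost sites it ran from 6.30% ± 4.76 in the 4th to 24.1% ± 13.9 in the strongest. Averaged over quartiles of parental CTCF rank, retained minus lost was 83.7 percentage points ± 3.44 (SD, n = 3), close to the value over all sites.

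**Figure D3:**
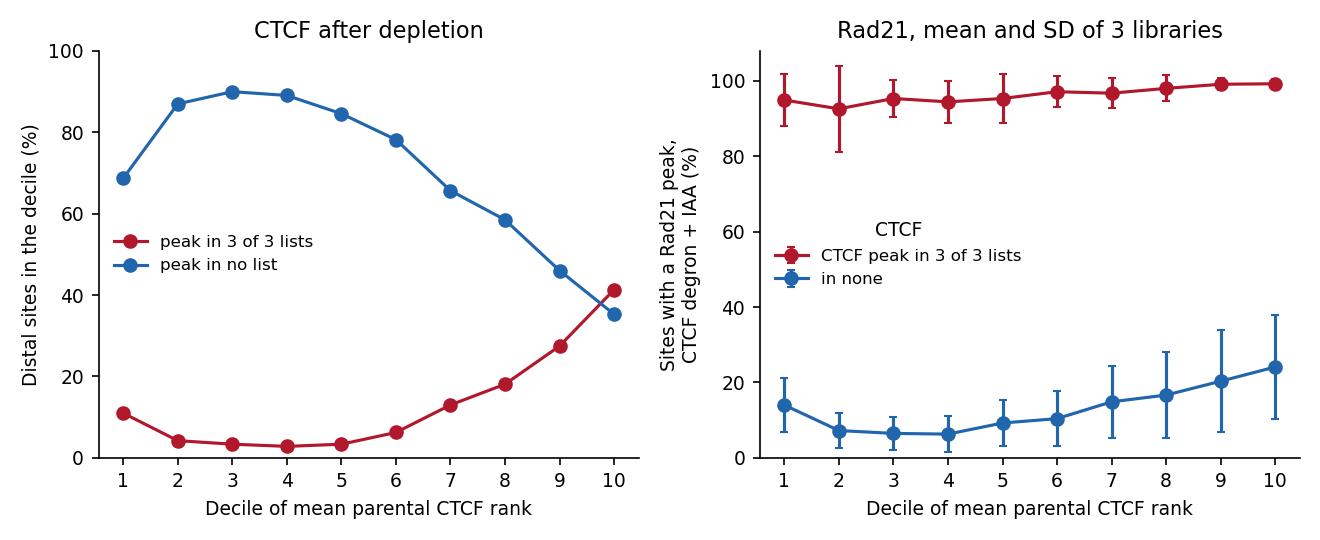
Left, percent of distal sites with a CTCF peak in 3 of 3 lists or in no list after depletion (y axis) by group of mean parental CTCF rank (x axis, 10 the strongest); the share with 3 lists is lowest at 2.81% in the 4th group and 41.3% in the 10th. Right, percent with a Rad21 peak in the CTCF-degron line, as the mean and SD of 3 libraries; retained sites stay above 92% and lost sites below 25% in every group.

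A single retained site had no Rad21. The intergenic site chr10:80213600-80214677, 3274 bp from the start of Dot1l (a histone H3 methyltransferase), had no Rad21 peak in any of the 3 lists after CTCF depletion. Its CTCF fold enrichment after depletion was 5.18, 6.72 and 4.25, and its parental Rad21 values were 11.6, 11.7 and 5.24. Rad21 was also called there in the untreated Rad21-degron line, at 4.61 and 4.40.

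In the untreated Rad21-degron line, retained sites already had Rad21 more often than lost sites. The shares were 98.3 and 93.4% at retained sites (mean 95.9% ± 3.44, SD, n = 2) and 80.6 and 65.2% at lost sites (mean 72.9% ± 10.9, SD, n = 2). Retained sites were higher in 2 of 2 libraries, by 22.9 percentage points ± 7.45 (exact sign-flip p = 0.5, the smallest for 2 libraries, and 0.5 adjusted). Both lists had Rad21 at 93.0% of retained sites, against 70.8% of distal sites and 63.6% of all parental Rad21 sites. Without parental Rad21 replicate 3, the shortest of the lists that define sites, the difference was 35.5 points. At least 50% coverage gave 15.1 points. Averaged over quartiles of parental CTCF rank the difference was 16.1 points, and over quartiles of parental Rad21 rank 16.6 points.

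With IAA in the Rad21-degron line, most retained sites had no Rad21 peak. In the treated libraries 14.8 and 9.68% of retained sites had a Rad21 peak (mean 12.3% ± 3.66, SD, n = 2), and IAA minus no IAA was -83.6 percentage points, with both treated libraries below both untreated ones. An exact permutation of the libraries gave p = 0.3333, the smallest that 2 against 2 allow (0.467 adjusted). Against the same sites in the CTCF-degron line with IAA, the difference was -85.6 percentage points (exact permutation p = 0.1, the smallest for 2 against 3 libraries, 0.4375 adjusted). These sizes depended on the length of the lists and the overlap asked for, as IAA left only 3588 and 1384 mouse peaks. With all lists shortened to the shortest of the comparison, the differences were -11.9 and -36.6 points, and with at least 50% of a site covered, -21.2 and -52.8 points.

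A minority of retained sites had Rad21 peaks even with Rad21 depleted. Peaks in both lists were found at 182 retained sites and in 1 list at 115, while 1656 had none. Over all distal sites, 1.25% had Rad21 in both lists and 2.47% in at least 1. Over all parental Rad21 sites the shares were 1.37 and 6.66%. Lost sites had a mean share of 0.0381% ± 0.0404 (SD, n = 2), lower than retained sites by 12.2 percentage points ± 3.62 (exact sign-flip p = 0.5, adjusted 0.5, in 2 of 2 libraries). Of the 186 distal sites with both lists, 97.8% were retained sites. On sites with a single-copy centre the difference was 5.95 points, with at least 50% coverage 6.40 points, and averaged over quartiles of parental CTCF rank 21.1 points.

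These sites had few CTCF motifs and much repeated sequence. Sites whose middle 31 bp has a second exact copy in the genome are called multi-copy. Among the retained sites with Rad21 in both lists after Rad21 depletion, 128 of 182 (70.3%) were multi-copy and 2.198% had a CTCF motif, against 3.297% of sequence 5 kb away. Among those with 1 list, 14.8% were multi-copy and 9.57% had a motif. Among the 1656 with none, 5.25% were multi-copy and 38.9% had a motif, against 1.27% of sequence 5 kb away. The part of repeated sequence in these peaks was not tested.

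**Figure D4:**
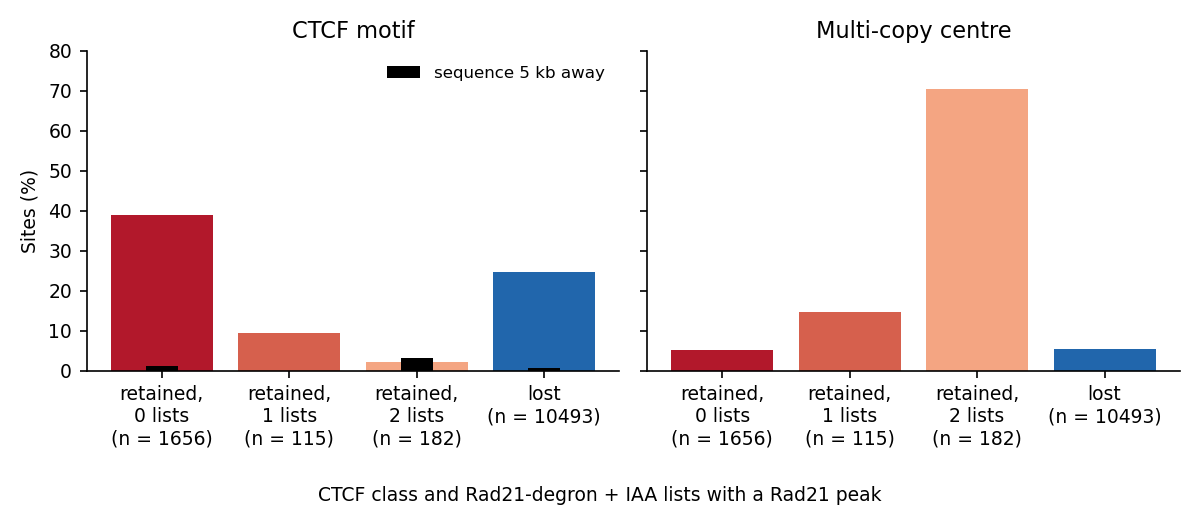
Percent of sites (y axis) with a CTCF motif (left) and with a multi-copy centre (right), for retained sites with a Rad21 peak in 0, 1 or 2 of the 2 lists after Rad21 depletion and for lost sites. Black bars on the left give the motif share of sequence of equal length 5 kb away; sites with 2 lists have a motif share of 2.198% and a multi-copy share of 70.3%.

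The retained sites with the highest fold enrichment belonged to this minority. All 8 sites with a single-copy centre that are among the 6 strongest by CTCF rank in the parental lists or after depletion had Rad21 in both lists after Rad21 depletion. At chr6:103599034-103599308, in an intron of Chl1 (a neural cell adhesion protein), CTCF fold enrichment was 6039, 4828 and 4013 in the parental lists and 6226, 5619 and 5039 after CTCF depletion. Rad21 fold enrichment there was 5683, 2593 and 1576 in the parental lists, 2280 and 1886 in the untreated Rad21-degron line, and 4125 and 3303 with Rad21 depleted. At chr9:35112789-35113196 it was 2879 and 2054 with Rad21 depleted, and at chr2:98503804-98504258, in an exon of Gm10801, 56.2 and 37.3. The chr6 site thus carried called CTCF and Rad21 peaks after CTCF depletion, and called Rad21 peaks after Rad21 depletion. CTCF was not profiled in the Rad21-degron line. These sites are counted as single-copy only in that the central 31 bp has no second exact copy in the reference, and near copies were not counted. No filter on regions known for artefact signal was applied, and whether reads of repeat copies that the reference lacks enter these fold values was not tested, so they are given as the authors' values and not as a measure of bound CTCF or Rad21. In each of the CTCF and Rad21 lists of the parental and CTCF-degron lines 3 retained sites exceeded a fold enrichment of 100, and the highest value among the 1656 without Rad21 after Rad21 depletion was 45.7.

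The other 5 of the 8 were weaker. At chr8:19702468-19703993 CTCF fold enrichment was 24.8, 27.4 and 36.7 in the parental lists and 6.37, 4.91 and 5.47 after CTCF depletion. At chrX:73843890-73844493, in an intron of 4930468A15Rik, it was 26.1, 22.4 and 22.3 in the parental lists and 27.0, 23.3 and 27.2 after depletion. At chr18:40467675-40468032, in an intron of Kctd16, it was 29.1, 35.4 and 36.1 in the parental lists and 37.9, 39.0 and 36.7 after depletion. Rad21 at the last was 28.1 and 16.7 with Rad21 depleted. The fourth, at chr18:3004528-3006514, had Rad21 of 16.6 and 12.01 with Rad21 depleted. None of these 4 has the motif. The fifth, at chr8:86280126-86280885, lies 3309 bp from a 7SK start and does carry the motif. Its CTCF fold enrichment was 23.9, 20.8 and 22.8 in the parental lists and 22.2, 28.6 and 32.4 after CTCF depletion. Rad21 there was 26.3 and 32.2 in replicates 1 and 2 after CTCF depletion, with no peak in replicate 3, and 12.6 and 9.37 with Rad21 depleted.

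On the distal sites with no peak after Rad21 depletion, retained minus lost in the CTCF-degron line was 86.5 percentage points ± 4.52 (SD, n = 3). The share with Rad21 in all 3 lists was 94.4% at the 1656 retained sites with none, 92.2% at those with 1 list and 92.3% at those with 2. The median parental CTCF rank in replicate 1 was 92.3, 59.4 and 80.5% in the same order. This setting was chosen after the data were seen.

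Sequence and position were compared as descriptions, since they have no replicate. A CTCF motif, called at a score that 1% of sequence 5 kb away reaches, was present at 33.7% of retained, 30.2% of partial and 24.7% of lost sites, and at 26.8% of all distal sites. The matching shares 5 kb away were 1.38, 1.61 and 0.810%. A threshold at 5% of flanking sequence gave 63.4, 61.7 and 58.6%, with 7.58, 6.72 and 4.14% in the flanks. The matrix was learned only from matches to a fixed 12 bp core, so sites that depart from that core score low. A site called without the motif may thus hold a weaker one. Among motifs found, 49.6% at retained sites, 42.0% at partial sites and 29.5% at lost sites contained a CpG, the dinucleotide whose methylation can block CTCF binding. More than 1 motif was present at 1.18% of retained and 0.343% of lost sites.

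Retained sites were wider and richer in CpG. Median width was 1023 bp against 870 bp at partial and 695 bp at lost sites. Wider sites hold more sequence to search, overlap a peak more readily and can draw their highest value from more peaks. Median GC content was 46.5, 46.6 and 45.0%, and median CpG density was 14.4, 13.1 and 9.80 per kb. For the 1656 retained sites with no peak after Rad21 depletion the median width was 992 bp and CpG density 15.0 per kb.

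Retained sites lay more often between genes. Of them, 68.8% were intergenic, 21.9% intronic and 9.37% exonic in GENCODE vM1, against 46.0, 40.3 and 13.8% of lost sites. Put the other way, 17.6% of the 7649 intergenic distal sites were retained, 9.59% of the 1908 exonic and 7.94% of the 5376 intronic ones. Distance to the nearest transcript start made less difference: the share retained was 11.7% at 1 to 5 kb, 13.2% at 5 to 20 kb, 14.1% at 20 to 100 kb and 12.8% beyond 100 kb. Cohesin-CTCF sites within 1 kb of a start, which the rule leaves out, had CTCF in all 3 lists at 25.8% of 4365.

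Retained sites clustered with each other at short range. Among distal sites with centres within 10 kb of a retained site, 43.4% were retained themselves. The share was 29.6% at 10 to 50 kb, 25.6% at 50 to 100 kb and 19.4% at 500 to 1000 kb, against 13.1% overall. Around lost sites it stayed between 12.9 and 13.7% at these distances. Without the sites that had peaks after Rad21 depletion, the shares around retained sites were 24.8, 16.7, 14.7 and 13.7% against 11.4% overall. Around lost sites they were then 12.1, 12.2, 12.7 and 12.3% at the same distances.

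**Figure D5:**
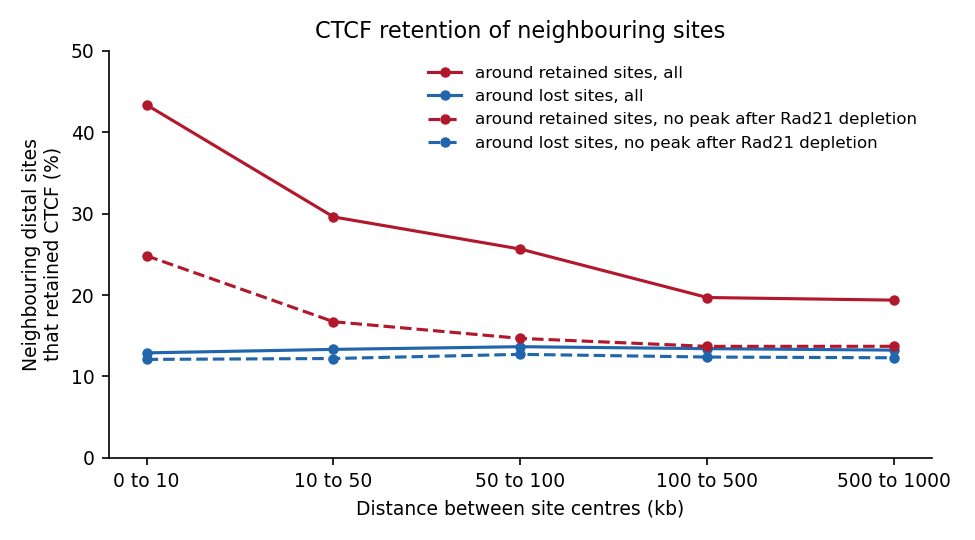
Percent of neighbouring distal sites that retained CTCF (y axis) by distance between centres in kb (x axis), around retained (red) and lost (blue) sites; solid lines are all distal sites and dashed lines sites with no peak after Rad21 depletion. Around retained sites the share falls from 43.4 to 19.4% for all sites and from 24.8 to 13.7% without those peaks.

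The median distance to the nearest other retained site was 113 kb, and 326 retained sites (16.7%) had one within 10 kb. For the 10493 lost sites the median to the nearest other lost site was 37.5 kb, with 20.4% within 10 kb. Such distances depend on the number of sites in a class, so the classes are not compared by them. The densest 100-kb window was chr1:135945542-136045541, with 7 of 9 distal sites retained, which holds the starts of Btg2 (an antiproliferative factor) and Chit1 (a chitinase). Rad21 stayed in all 3 lists at all 7, and 2 of them also had a peak after Rad21 depletion. The window chr1:88313162-88413161 held 7 retained of 11 distal sites, all 7 with Rad21 in 3 lists. The window chr1:133878412-133978411, with Elk4 (an ETS factor) and Mfsd4, and the window chr15:78345196-78445195, with Rac2 (a GTPase of blood cells) and Cyth4, each held 4 of 6. At chr1:156853743-156953742, around Ier5 (an immediate early gene), all 4 distal sites were retained and 3 had Rad21 in all 3 lists.

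Genes near retained sites were counted in 10 lists within 50 kb of a transcript start. For B-lineage transcription factors 12 of 54 distal sites nearby were retained (22.2%), for V(D)J recombination and end-joining genes 4 of 26 (15.4%), and for pre-B receptor genes 4 of 31 (12.9%). The Abl and JAK-STAT list had 7 of 39 (17.9%), cohesin and CTCF genes 3 of 21 (14.3%), and cell-cycle and survival genes 4 of 40 (10.0%). Light-chain and T-cell receptor genes had 11 of 93 (11.8%), Hox clusters 1 of 13 (7.69%), imprinted genes 1 of 16 (6.25%) and clustered protocadherins 0 of 4. With 13.1% retained over all distal sites and counts this small, nothing particular to a list is read from these shares. No interval is given, because neighbouring sites share their locus.

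Some of the named sites carry the motif, and 4 are shown because they lie within 50 kb of genes of the recombination, B-lineage and cohesin lists. Each is labelled with its list gene, which need not be the nearest. The nearest start was that of Traf6 for the Rag1 site (12609 bp) and of Nutf2-ps1 for the Smc3 site (9488 bp). For the Ctcf site it was that of Mir1966 (6413 bp). The 20 bp motif is in capitals, on mm9.
Tcf3, chr10:79908545-79909508, plus strand: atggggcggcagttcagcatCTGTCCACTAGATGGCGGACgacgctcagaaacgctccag
Rag1, chr2:101505302-101505977, plus strand: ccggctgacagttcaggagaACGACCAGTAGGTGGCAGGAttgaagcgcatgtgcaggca
Smc3, chr19:53653045-53654070, minus strand: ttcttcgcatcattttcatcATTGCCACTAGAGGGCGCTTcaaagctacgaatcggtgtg
Ctcf, chr8:108145779-108148815, plus strand: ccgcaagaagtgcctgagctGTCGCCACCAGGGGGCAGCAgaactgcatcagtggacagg

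Of the B-lineage factors, Tcf3 (encoding E2A) had 3 retained sites within 50 kb, the nearest 12153 bp away. There CTCF fold enrichment was 11.6, 10.4 and 11.8 in the parental lists and 8.19, 15.0 and 7.41 after depletion. Rad21 was 16.5, 15.3 and 7.95 after CTCF depletion, and no list had it after Rad21 depletion. A retained site lay 3636 bp from Foxo1 (a factor required for Rag expression), with CTCF of 6.34, 11.8 and 6.09 and Rad21 of 13.1, 11.8 and 7.26 after CTCF depletion. In an intron of Pax5, the B-cell commitment factor, a site of 4616 bp kept CTCF at 7.25, 10.6 and 7.07 and Rad21 at 5.79, 5.45 and 4.41. The site in an exon of Spib (an ETS factor) kept Rad21 in only 2 lists, at 5.40 and 4.68, and lacked it in replicate 3. Rad21 therefore stayed in all 3 lists at 3 of these 4 sites.

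Near the recombinase genes, the intergenic site 15644 bp from a start of Rag1 (encoding the RAG endonuclease subunit) had CTCF of 8.61, 9.54 and 13.9 in the parental lists and 8.78, 12.9 and 8.32 after depletion. Rad21 there was 12.5, 13.6 and 6.26 after CTCF depletion. A second site, 22218 bp from Rag2 in an intron of B230118H07Rik, kept CTCF at 5.80, 5.38 and 4.50 and Rad21 at 7.10, 5.88 and 5.63. The line is deficient in RAG2, and the labels do not describe that allele. A site 42037 bp from Dntt (terminal transferase, which adds untemplated nucleotides), in an intron of Opalin, kept CTCF at 6.88, 12.8 and 8.15. A site 27258 bp from Nhej1 (an end-joining factor), in an exon of Slc23a3, kept CTCF at 4.90, 5.97 and 5.53. All 4 retained sites of this list kept Rad21 in 3 lists and had none after Rad21 depletion.

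Among pre-B receptor genes, Vpreb2 (a surrogate light-chain subunit) had a retained site 3798 bp from its start, with Rad21 of 13.9, 13.8 and 6.36 after CTCF depletion. The site in an intron of Blnk (a signalling adaptor) had 8.06, 6.56 and 4.54. The site 5642 bp from Cd79b (a signalling subunit of the receptor) was weak, with CTCF of 3.83, 3.70 and 3.89 in the parental lists. It had Rad21 in 2 lists after CTCF depletion and also in 1 list after Rad21 depletion, at 4.43. This site thus belonged to the minority with peaks left after Rad21 depletion.

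Near the genes of the depleted machinery itself, a retained site lay 11653 bp from Ctcf, in an exon of Fam65a. Its CTCF was 6.80, 8.38 and 5.43 after depletion. Rad21 there was 12.6, 11.6 and 6.72 after CTCF depletion, and 1 list had it after Rad21 depletion, at 5.17. The site 20816 bp from Smc3 (a core ring subunit) kept CTCF at 5.83, 10.6 and 5.83, and the site 6365 bp from Nipbl (the cohesin loader) at 5.11, 7.20 and 4.99. Both kept Rad21 in all 3 lists.

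In the Abl and JAK-STAT list, sites lay in an intron of Socs2 and 17752 bp from Socs1, both feedback inhibitors of cytokine signalling. Others lay 14880 bp from Jak3 (a cytokine receptor kinase), in an exon of Unc13a, and 18053 bp from Bcl6 (a transcriptional repressor). The Jak3 site had the largest Rad21 values of these after CTCF depletion, at 19.2, 17.0 and 8.70. Of the cell-cycle genes, Ccnd3 (cyclin D3) had 2 retained sites. The one in its intron had Rad21 of 11.5, 9.28 and 5.91. The sites near Bbc3 (encoding the death factor PUMA) and Trp53 (the p53 tumour suppressor) lay 13699 and 39565 bp away. The nearest site of each of these 7 genes kept Rad21 in 3 lists.

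At the antigen-receptor loci other than the heavy chain, a retained site lay 1374 bp from Iglv2, a lambda light-chain segment, with Rad21 of 16.2, 12.3 and 8.07 after CTCF depletion. A motif site lay 1628 bp from Trbv14 and 3610 bp from Trbv15, segments of the T-cell receptor beta locus, with Rad21 of 9.31, 6.36 and 4.36. Near Igkv14-111, a kappa segment, 4 retained sites lay within 50 kb. The nearest, at chr6:68198881-68203780, has a central 31 bp found 6 times in the genome, and Rad21 was called there in 1 list after Rad21 depletion. The single retained site of the Hox lists lay 2335 bp from Hoxb8, a body-patterning gene, with Rad21 of 13.9, 11.7 and 6.57. The imprinted list had a single site, 43781 bp from Nnat (a paternally expressed gene), with CTCF of 4.25, 8.40 and 5.16 after depletion.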

How the data were processed

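The data are broadPeak lists, 1 for each of 16 ChIP-seq libraries. The 8 input libraries were not used. By the labels, replicates 2 and 3 of the parental line share an input, as do those of the CTCF-degron line. Inputs of these lines are labelled with the CTCF ChIP, and which input served each list is not stated here. The CTCF and Rad21 lists of a line may therefore share a control. Per the submitters' processing notes, Bowtie2 2.2.8 and SAMtools 1.8 were used, and the genome, per the labels, is a hybrid of mm9 and a further sequence. The peak caller and its threshold are not given in the sources used here. In the deposited lists the authors' fold enrichment is a linear ratio, and 2 columns hold -log10 p and q-values. The deposited score follows -log10 q and was not used. Fold enrichment served only to describe, rank and filter peaks within its own list. A site took the highest fold enrichment and rank among the peaks of a list that overlap it. In a wide site the values of different lists can thus come from different peaks. The lists hold no read counts, so depth is unknown and intervals for counting error cannot be given. They have 1384 to 67810 mouse peaks. Peaks on human contigs, from HCT116 spike-in cells in 8 lists, were left out.

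The members and gene lists were chosen with earlier results of these data known. Sites, classes and overlaps (at least 1 bp) were computed with Python 3.11.15, numpy 2.4.6 and pandas 2.3.3, and sequences were read with pysam 0.24.0. Peak ends on chromosome 12 exceed the reference NCBIM37, so that chromosome was left out. Rad21 shares were compared with exact permutation tests over libraries, which cannot reach 0.05 at 2 or 3 libraries, with Benjamini-Hochberg adjustment over 7 tests. The CTCF motif is a 20 bp weight matrix learned from 2557 core matches in 17016 CTCF sites outside the distal set. Scripts were tested on simulated data. Named sites were, with multi-copy centres left out, the 6 strongest by parental CTCF and by CTCF after depletion, those with no Rad21 after CTCF depletion or with Rad21 in both lists after Rad21 depletion (up to 4 each), the 5 densest 100-kb windows, up to 4 genes per list, and the sites nearest the limits. The site of 1 gene named by this rule is not reported here. Peak names hold codes that differ between replicates and whose meaning the labels do not give. Alternatives are given in the closing section.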

Additional observations from a re-analysis of the deposited data

How the results depend on the processing

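All 162 recalculations of the 7 tested differences kept their direction, and none could pass or lose a threshold of 0.05, which these designs cannot reach. Without each replicate in turn, retained minus lost for Rad21 after CTCF depletion ranged from 79.4 to 88.2 percentage points, retained minus partial from 5.00 to 21.5, and the rank difference from 44.4 to 55.5. In the untreated Rad21-degron line it ranged from 17.7 to 35.5 and after Rad21 depletion from 9.45 to 15.8, while IAA minus no IAA ranged from -86.2 to -77.1 and Rad21-degron minus CTCF-degron from -88.1 to -80.3. Replicate numbers are not stated to pair cultures. With the replicate block the last 2 were -83.6 (exact sign-flip p = 0.5) and -87.3 (p = 0.5), and with no replicate block retained minus lost stayed at 86.3 (exact permutation p = 0.1). The number of retained sites was 1512 over 5 kb from a start, 1866 with peaks within 1000 bp joined, 2054 with spike-in Rad21 libraries alone, and 1961 to 2781 without each replicate of the rule. The motif share of retained sites was 8.45% at a threshold of 0.1% of flanking sequence, 63.4% at 5% (added after the data were seen) and 36.7% at single-copy centres. At 100 kb instead of 50 kb, 17 of 87 distal sites near B-lineage factors were retained (19.5%). Peak calling limits what is seen: a site without a peak may hold protein below the caller's threshold.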

Other observations

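Retained sites were spread over all chromosomes examined. The share of distal sites retained ran from 10.4% on chromosome 14 to 17.2% on chromosome 1 over the 18 autosomes. On the X chromosome it was 20.3% (90 of 444), and 71 of those 90 sites had a Rad21 peak after Rad21 depletion. Retained sites without such a peak made up 4.28% of all distal sites on the X chromosome (19 of 444). The same share, also over all distal sites, ran from 9.35 to 14.5% on the autosomes. Of the retained X sites, 57 had a multi-copy centre. All 5 distal sites on the Y chromosome were retained and had such a peak. No test was made of these shares.

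Motif orientation was close to even. Among 639 neighbouring pairs of retained motif sites, 24.7% were convergent, 24.3% divergent and 51.0% in tandem, against 25.5, 25.4 and 49.1% of 2575 pairs of lost sites.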
